A study of Mus musculus with 4 samples.

Results

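Ccr7, S1pr1, Il7r, Lef1, Tcf7, Satb1, Bach2, Foxp1 and Dapl1 are genes of naive and recirculating lymphocytes. They were taken by symbol, 9 genes of the 32285 measured, and followed in CD4 T, CD8 T and B cells of the mouse lung. Whole lungs were taken from 4 females of the MMTV-PyMT line (FVB/NJ background), in which the mouse mammary tumour virus promoter drives the polyoma middle T oncogene in mammary epithelium. All 4 mice carried the transgene, so the comparison concerns lungs of tumour-model mice in both arms. A pellet had been implanted at 8 weeks of age and left for 5 weeks, and the lungs were collected at 13 weeks. The pellet was a placebo in 2 mice and held 5 mg tamoxifen, released over 60 days, in the other 2. Perfused lungs were digested with enzymes, and the cells of every animal were sequenced as a separate 10x Genomics 5' single-cell RNA library. The mouse is therefore the replicate, and 2 mice against 2 cannot give an exact two-sided permutation p below 0.333.

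Naive lymphocytes travel between blood and lymphoid organs until they meet antigen. CCR7 is the chemokine receptor that brings them into lymph nodes along CCL19 and CCL21, and S1PR1 senses sphingosine 1-phosphate and lets them leave again into lymph and blood. IL-7 receptor alpha carries the survival signal of resting T cells. TCF1, encoded by Tcf7, and LEF1 are related DNA-binding factors that act with beta-catenin or with repressors, SATB1 organises chromatin in T cells, and BACH2 and FOXP1 restrain effector differentiation and hold lymphocytes quiescent. Dapl1, a death-associated protein-like gene, is used as a marker of naive T cells, and its function in them is less well described.

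The genes lie on different chromosomes of GRCm38, apart from 2 pairs. Ccr7 (chr11:99144196-99155077, minus strand) shares chromosome 11 with Tcf7 (chr11:52252371-52283014, minus strand). S1pr1 (chr3:115710433-115715072, minus strand) shares chromosome 3 with Lef1 (chr3:131110471-131224356, plus strand). Il7r lies at chr15:9505788-9530176 (minus strand), Satb1 at chr17:51736187-51833290 (minus strand), Bach2 at chr4:32238804-32586108 (plus strand), Foxp1 at chr6:98925338-99522721 (minus strand) and Dapl1 at chr2:59484653-59505020 (plus strand). All are annotated as protein-coding. RefSeq promoter windows of GRCm38.p6 were matched for 7 of the 9 genes, with 17 windows of 250 bases upstream of an annotated start. Shown here are the windows directly upstream of the outermost start of Dapl1 and Lef1, which were near 0 in B cells, and of Satb1, which B cells also held, with the coordinates chr2:59484403-59484652 (plus strand), chr3:131110047-131110296 (plus strand) and chr17:51833291-51833540 (minus strand).
Dapl1: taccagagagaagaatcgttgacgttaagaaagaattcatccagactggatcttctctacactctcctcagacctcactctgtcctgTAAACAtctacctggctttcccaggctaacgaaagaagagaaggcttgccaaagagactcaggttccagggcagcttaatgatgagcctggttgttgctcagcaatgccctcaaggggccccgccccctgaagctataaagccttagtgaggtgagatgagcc
Lef1: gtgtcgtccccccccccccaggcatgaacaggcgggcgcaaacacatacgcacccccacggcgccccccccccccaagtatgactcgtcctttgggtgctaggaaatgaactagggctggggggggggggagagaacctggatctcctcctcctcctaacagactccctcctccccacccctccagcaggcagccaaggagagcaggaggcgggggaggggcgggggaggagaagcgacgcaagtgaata
Satb1: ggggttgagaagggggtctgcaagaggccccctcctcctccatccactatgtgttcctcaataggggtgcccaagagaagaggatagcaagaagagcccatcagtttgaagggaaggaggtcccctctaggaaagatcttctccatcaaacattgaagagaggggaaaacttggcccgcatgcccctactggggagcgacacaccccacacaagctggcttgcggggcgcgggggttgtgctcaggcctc

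Capitals mark the match to a FOXO-type motif (TGTTTA, or TAAACA on the other strand). The TCF and LEF motif (CTTTGA or TCAAAG) and the RUNX motif (TGTGGT or ACCACA) were also searched on both strands; the 3 motifs do not overlap in the windows shown, and 1 match was found among them. The Lef1 window is 66.4% G and C, against 50.0% for Dapl1 and 58.0% for Satb1. Of all 32851 RefSeq windows of this length, 12.03% hold the FOXO letters, 13.8% the TCF and LEF letters and 14.05% the RUNX letters. Among the other windows, a Lef1 window at a start inside the gene (chr3:131156044-131156293) holds 2 TCF and LEF matches, the Bach2 window and 1 Foxp1 window hold 1 each, and each of the 3 Foxp1 windows holds at least 1 FOXO match. A match describes letters only.

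The deposited matrices held 7272 to 10168 barcodes and 32646505 to 37285982 UMIs (unique molecules) per library, and 28477 cells were kept, with median UMIs of 2626 and 4066 in the placebo libraries and 3234 and 2909.5 in the tamoxifen libraries. Of 34162 barcode sequences, 585 occurred in more than 1 library. Cells were clustered without the 9 genes, and clusters were named from markers that exclude them; "-like" marks such a name, although the classes are called CD4 T, CD8 T and B cells below. There were 1877 CD4 T cells (658 in placebo 1, 235 in placebo 2, 596 in tamoxifen 1, 388 in tamoxifen 2), 710 CD8 T cells (205, 98, 275 and 132) and 1763 B cells (541, 128, 810 and 284). The names were checked against defining genes: the larger CD4 T cluster held Cd4 at 229 CPM (counts-per-million scale, relative to all UMIs of the cells summed) and its Cd8a and Cd8b1 sum at 11.8 CPM, the smaller CD4 T cluster, with few UMIs, held 127 and 43.3 CPM (an unnamed cluster left out of the classes held 43.2 and 47.9 CPM), the larger CD8 T cluster held Cd4 at 3.88 and the Cd8 sum at 1478 CPM, and the 8 B cell markers summed to 8819 to 10534 CPM in B cells against 90.1 to 140 CPM in CD4 T cells. Each value below is summed over the cells of a class in a library, so more transcripts per cell and more cells that hold the transcript cannot be told apart. In plain CPM the divisor is the class's own UMI total; in the treatment tests that total is adjusted by edgeR's TMM factors. A comparison of classes is a description, since the classes come from the same cells.

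Most of the 9 genes were highest in CD4 or CD8 T cells, but Il7r, S1pr1 and Foxp1 had their highest mean level elsewhere among the 22 classes that had 20 or more cells per library. B cells held Ccr7, S1pr1, Satb1, Bach2 and Foxp1 and were near 0 for Il7r, Lef1, Tcf7 and Dapl1.

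Among the homing receptors, the mean Ccr7 level was 1128 ± 85.4 plain CPM in CD4 T cells, 1051 ± 87.5 in CD8 T cells and 809 ± 179 in B cells (SD, n = 4 mice). Neighbours in this order overlapped, and all 3 classes lay above regulatory T cells, at 490 ± 138 CPM, in each mouse. A class too small for this order, mature dendritic cells with 43 cells, held Ccr7 at 3539 to 5686 CPM in the 4 libraries, above every lymphocyte class. S1pr1 was highest in endothelium, at 772 ± 97.0 CPM in general capillary and 745 ± 71.5 CPM in aerocyte endothelial cells. Its order among lymphocytes was CD4 T cells (408 ± 25.0), CD8 T cells (279 ± 31.0), regulatory T cells (261 ± 34.8) and B cells (168 ± 44.6 plain CPM). The CD8 T and regulatory T ranges overlapped, while every library of CD4 T cells lay above every library of CD8 T cells.

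Il7r was highest in gamma delta T cells, at 2005 ± 102 plain CPM, followed by CD4 T cells at 1185 ± 111, CD8 T cells at 826 ± 160 and regulatory T cells at 713 ± 138. Neither gamma delta T cells and CD4 T cells nor CD4 T and CD8 T cells overlapped in their libraries, whereas CD8 T and regulatory T cells did. The 100 innate lymphoid cells, too few for the order, held Il7r at 1353 to 1814 CPM. In B cells 11, 2, 32 and 8 UMIs of Il7r were counted in placebo 1, placebo 2, tamoxifen 1 and tamoxifen 2.

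The T cell factors fell into a pair that B cells lacked and a trio that they held. Lef1 stood at 820 ± 47.1 plain CPM in CD4 T cells, 576 ± 42.8 in CD8 T cells and 168 ± 35.9 in regulatory T cells, with no overlap between neighbours in that order, and Tcf7 followed the same order at 729 ± 69.4, 543 ± 24.8 and 298 ± 88.8 CPM. All B cells together gave 39 UMIs of Lef1 and 18 of Tcf7. Satb1 went from 511 ± 43.6 CPM in CD4 T cells through 337 ± 65.0 in CD8 T cells and 218 ± 25.9 in natural killer cells to 165 ± 55.9 in B cells. Bach2 was 170 ± 13.1 CPM in CD4 T cells, 135 ± 54.1 in B cells and 103 ± 23.8 in CD8 T cells, and neighbours in this order overlapped. Foxp1 alone had B cells first, at 591 ± 120 CPM, ahead of general capillary endothelium at 484 ± 169 and CD4 T cells at 400 ± 44.1, and 10.3% to 12.4% of neutrophils thinned to 1000 UMIs held a UMI of it. Dapl1 was higher in CD8 T cells (182 ± 26.3 CPM) than in CD4 T cells (133 ± 32.2) in 3 of 4 mice, and the next class, club or secretory airway cells, held 31 UMIs in all. Gamma delta T cells gave 0 UMIs of Dapl1 from 244 cells.

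**Figure D1:**
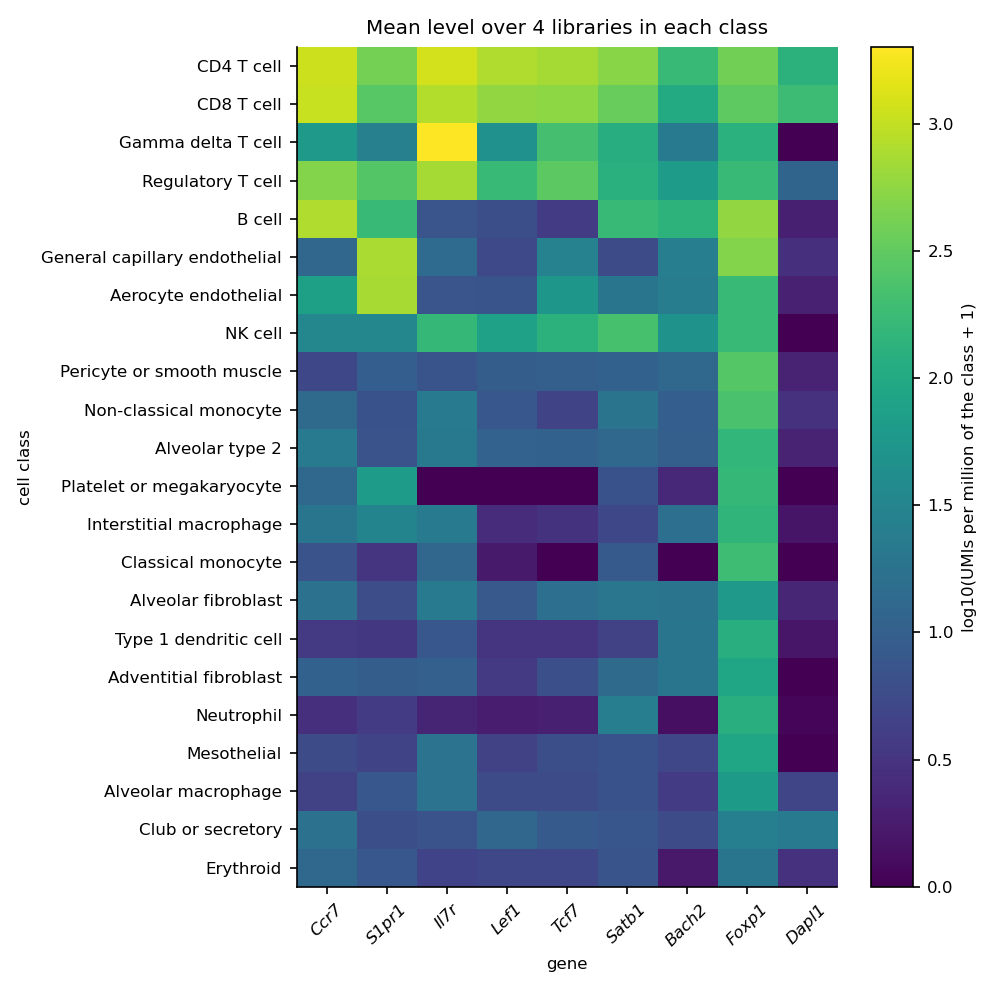
Colour gives the mean level over 4 libraries of each gene (columns) in each of 22 cell classes (rows), as log10 of plain CPM plus 1. Il7r, Lef1, Tcf7 and Dapl1 are near 0 in B cells, which hold Ccr7 at 809 and Foxp1 at 591 CPM, and S1pr1 is brightest in the 2 endothelial classes.

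Across the 22 classes the levels of Lef1 and Tcf7 followed each other most closely of the 36 pairs (Pearson r = 0.94 on log2 of plain CPM plus 10), then Il7r and Tcf7 (r = 0.92), and least closely Foxp1 and Dapl1 (r = 0.22). These are descriptions: the classes share the same 4 libraries and differ in depth. Of the 11213 genes compared, the closest to Ccr7 was Fam169b (r = 0.96), to S1pr1 Trib2 (r = 0.93), to Il7r the CD3 chain gene Cd3g (r = 0.98) and to Tcf7 the costimulatory receptor gene Cd27 (r = 0.97). Closest to Satb1 was Scml4 (r = 0.96), to Bach2 Pced1b (r = 0.92), to Foxp1 Lrch1 (r = 0.91) and to Dapl1 the receptor segment Trav8d-2 (r = 0.93). The gene closest to Lef1 was Lef1os1 (r = 0.97), named as its opposite-strand transcript; whether the counting used strand is not given in the sources used here, so reads of the pair may not be fully separated.

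Within the T cell classes the genes were not evenly spread over clusters. CD8 T cells comprised a cluster of 614 cells and a cluster of 96 cells led by Ccl5 and Nkg7, genes of effector and memory T cells. Summed over the libraries, the large cluster held Ccr7 at 1165 plain CPM and the small one at 395, Lef1 at 644 and 168, Dapl1 at 209 and 56.8, S1pr1 at 313 and 139.5, Satb1 at 363 and 150, and Bach2 at 115 and 43.9. As a ratio between the clusters, the difference was smallest for Il7r, at 872 and 525 CPM, and Tcf7, at 574 and 344 CPM. These sums were lower in the small cluster for all 9 genes, but it held 18 cells of placebo 1, 5 of placebo 2, 62 of tamoxifen 1 and 11 of tamoxifen 2. Ccr7, Il7r, Lef1 and Satb1 were lower there in each of the 4 libraries; in placebo 2, with 5 cells, S1pr1 (319 against 230 CPM), Tcf7 (797 against 529), Foxp1 (478 against 350) and Dapl1 (319 against 197) were higher, and in tamoxifen 2 Bach2 was (81.0 against 74.3). The CD4 T class joined a cluster of 1416 cells and one of 461 cells with few UMIs (median 1103 against 2882.5); summed over the libraries, the latter had lower CPM of all 9 genes, from 129.8 against 137.5 for Dapl1 to 733 against 1196 for Ccr7. In each of the 4 libraries this held for Ccr7, S1pr1, Il7r, Lef1, Tcf7 and Bach2, while Dapl1 was higher in the low-UMI cluster in placebo 2 (196 against 82.7) and tamoxifen 1 (158 against 148), and Satb1 and Foxp1 in placebo 1 (607 against 548 and 508 against 454).

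B cells formed clusters of 1156 and 607 cells. The larger, whose leading genes included Fcer2a, the low-affinity IgE receptor of follicular B cells, held Ccr7 at 903 and the smaller, led by Cd79a and Ms4a1, at 694 plain CPM. Bach2 was at 165 and 94.0 CPM, Satb1 at 199 and 128, Foxp1 at 616 and 563, and S1pr1 at 159 and 153. The order held in each library for Ccr7, Bach2 and Satb1, but not for Foxp1 in tamoxifen 1 and tamoxifen 2 or for S1pr1 in placebo 1 and tamoxifen 1. Il7r (2.61 and 15.8 CPM), Lef1, Tcf7 and Dapl1 went the other way, at low counts.

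Clusters kept out of the 3 classes by the naming rule differed among themselves. A T cell cluster with low levels of both coreceptors (67, 25, 52 and 40 cells in placebo 1, placebo 2, tamoxifen 1 and tamoxifen 2), led by Il2rb, Ctsw and Klrc1, combined Il7r at 1169 plain CPM with Ccr7 at 108, Lef1 at 159, S1pr1 at 92.7 and 0 UMIs of Dapl1. In a cluster of 21 cells (5, 0, 9 and 7) with Rag1, Dntt and both coreceptors, genes of immature T cells in the thymus, Tcf7 stood at 1523 and Satb1 at 1269 CPM, above every class, with 0 UMIs of Il7r and S1pr1. An immunoglobulin-led cluster with few UMIs per cell (74, 17, 59 and 25 cells) held Ccr7 at 231 and Foxp1 at 301 CPM. Also left out were 112 T cells (56, 5, 16 and 35) and 80 B cells (41, 1, 18 and 20) in clusters with 27.04% and 22.3% haemoglobin UMIs, and 45 cycling cells (17, 2, 12 and 14).

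**Figure D2:**
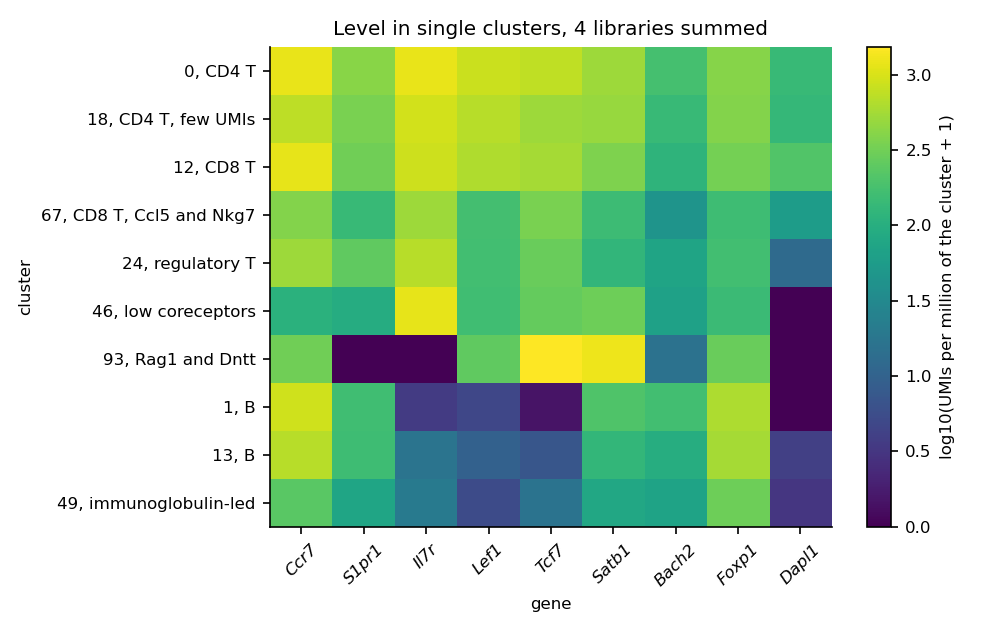
Colour gives the level of each gene (columns) in single lymphocyte clusters (rows), 4 libraries summed, as log10 of plain CPM plus 1. The Ccl5 and Nkg7 cluster of CD8 T cells is lower than the large CD8 T cluster for all 9 genes in these sums, and the Rag1 and Dntt cluster has Tcf7 and Satb1 without Il7r or S1pr1.

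Counted per cell after thinning each cell to 1000 UMIs, 72.4% to 79.3% of CD4 T cells of a library held UMIs of at least 3 of the 9 genes. The share was 55.0% to 69.9% in CD8 T cells, 11.7% to 23.8% in B cells, 0 in each library of neutrophils and 0 to 2.97% in alveolar type 2 cells, which serve as background. Cells with none of the 9 genes made up 0.452% to 2.43% of CD4 T cells. In CD8 T cells they were 7.29% for placebo 1, 3.23% for placebo 2, 13.8% for tamoxifen 1 and 4.65% for tamoxifen 2, so the tamoxifen 1 library, which also held 62 of the 96 cells of the Ccl5 and Nkg7 cluster, had the most. In B cells the lowest share with none was 13.3%, in placebo 1, against 22.6% to 25.0% in the other 3 libraries. Cells shallower than 1000 UMIs were left out, from 123 of 658 CD4 T cells in placebo 1 to 0 B cells in placebo 2 and tamoxifen 2.

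In CD4 T cells, none of the 9 genes passed an adjusted p of 0.05 between tamoxifen and placebo in edgeR's quasi-likelihood test. Over all 7887 genes tested 2 were called (0.0254%), the stress-response genes Gadd45b and Dusp1, both lower. At an unadjusted p under 0.05 edgeR gave 1 of the 9 genes, Dapl1, against 3.98% of all genes tested, and DESeq2 called 0 of the 9 in each class. Its level was 125.1 and 94.1 TMM-scaled CPM in placebo 1 and 2 and 148.1 and 172 in tamoxifen 1 and 2. Both tamoxifen libraries lay above both placebo libraries. The log2 fold change was 0.51 ± 0.17 (SE; 95% interval 0.16 to 0.87), with an unadjusted p of 0.00771 and an adjusted p of 1.00 by edgeR. By share of cells, unthinned, Dapl1 was found in 16.9% (exact binomial 95% interval 14.1% to 19.95%) and 16.6% (12.1% to 22.0%) of placebo cells and in 22.5% (19.2% to 26.1%) and 25.3% (21.0% to 29.9%) of tamoxifen cells. Thinned, the shares were 9.16% and 7.69% in the placebo libraries and 10.0% and 13.8% in the tamoxifen libraries, against at most 0.0911% in neutrophils and 0.990% in alveolar type 2 cells (1 of 101 cells of tamoxifen 1). These intervals cover counting error only. Without placebo 1, which leaves a lone placebo library, edgeR put Dapl1 at 0.76 on the log2 scale. Over the fits that left out 1 library, its log2 fold change ran from 0.36 to 0.76. Neutrophil markers, 8 of 8 found, summed to 143 and 2237 plain CPM in the placebo and 194 and 74.1 CPM in the tamoxifen libraries of CD4 T cells, highest in placebo 2, where Dapl1 was lowest; their part in the result was not tested.

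S1pr1 was the other gene with both tamoxifen libraries above both placebo libraries in CD4 T cells, at 368 and 421 CPM against 423 and 442 (TMM-scaled). The gap between placebo 2 and tamoxifen 1 was small, and the log2 fold change was 0.14 ± 0.14 (interval -0.17 to 0.44). Foxp1 lay below in both on TMM-scaled CPM, at 458 and 395 in the placebo and 383 and 379 in the tamoxifen libraries. Its log2 fold change was -0.17 ± 0.14. On plain CPM its groups overlapped slightly, since placebo 2 gave 384 and tamoxifen 1 386. Thus on TMM-scaled CPM 2 of 9 genes did not overlap upward and 1 downward, against 15.2% and 15.5% of all genes tested in CD4 T cells.

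The other 6 genes overlapped in CD4 T cells. Ccr7 was 1237 and 1118 TMM-scaled CPM in the placebo and 1060 and 1148 in the tamoxifen libraries, a log2 fold change of -0.09 ± 0.14 that leaves folds from 0.763 to 1.15 inside its interval. Il7r was 1084 and 1389 against 1142 and 1186 CPM, with placebo 2 highest. For Lef1 the libraries gave 835 and 792 against 788 and 906 CPM, and for Tcf7 758 and 697 against 660 and 838 CPM. In both, tamoxifen 1 was the lowest and tamoxifen 2 the highest of the 4. Satb1 and Bach2 had log2 fold changes of 0.00 ± 0.15 and -0.11 ± 0.15. The median over the 9 genes was 0.00, and over all genes tested -0.01.

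**Figure D3:**
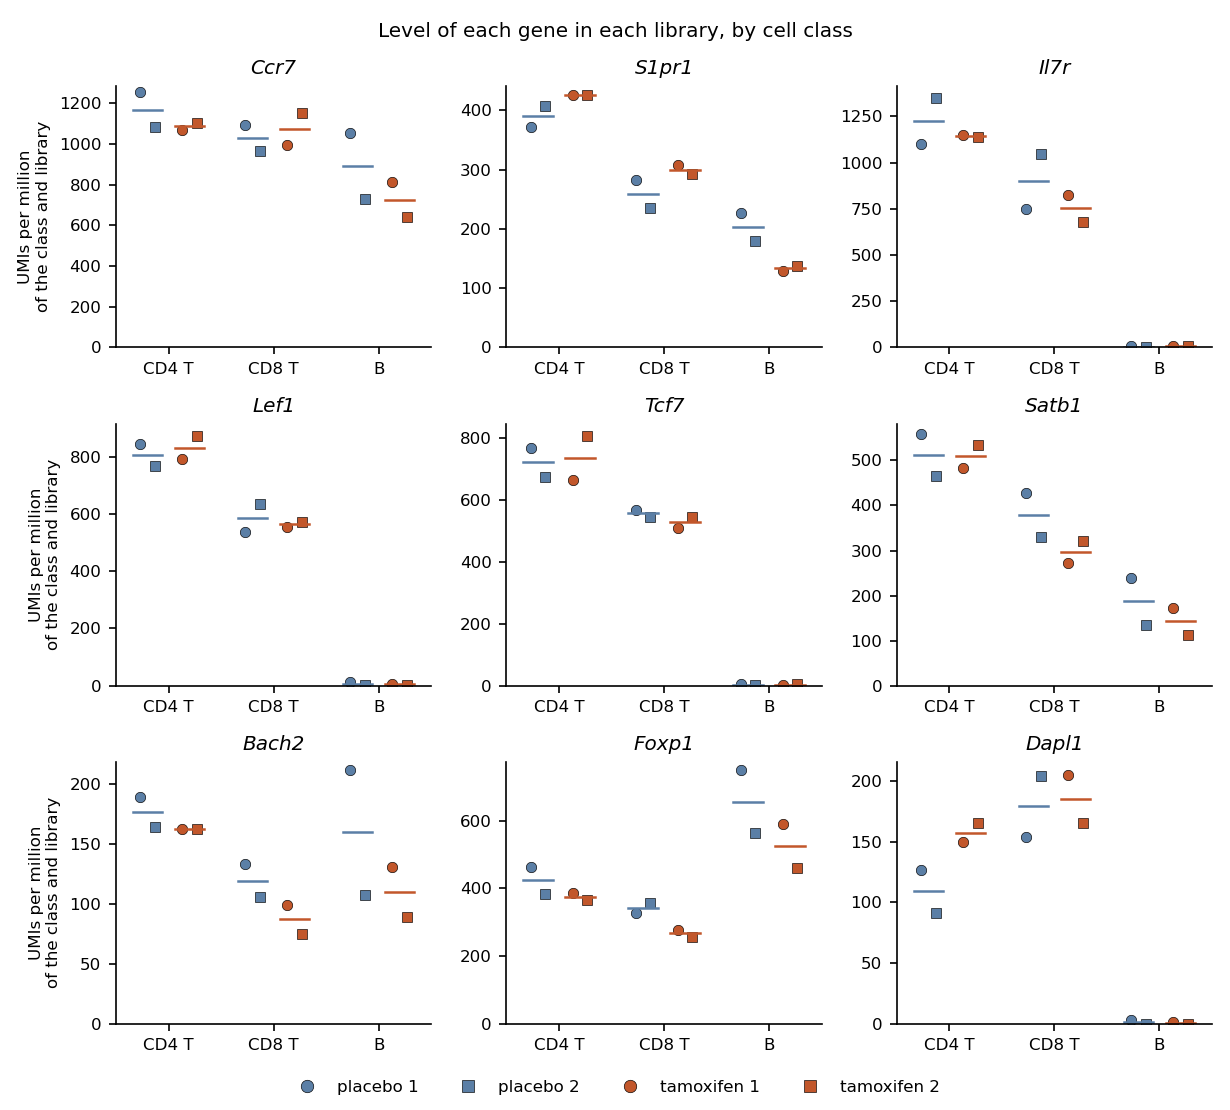
Each panel shows 1 gene, with its level in plain CPM (axis from 0) for CD4 T, CD8 T and B cells. Points are libraries, circles replicate 1 and squares replicate 2, and lines are group means; in B cells placebo 1 is the highest library for Ccr7, S1pr1, Satb1, Bach2 and Foxp1.

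In CD8 T cells, again none of the 9 genes passed in edgeR, where 2 of 5791 genes did (0.0345%), and 0 of the 9 had an unadjusted p under 0.05, against 3.75% of all genes tested. The 3 genes that lay below placebo in both tamoxifen libraries encode nuclear factors. Bach2 was 132 and 114 TMM-scaled CPM in the placebo libraries and 98.9 and 82.0 in the tamoxifen libraries. Foxp1 was 325 and 385 against 278 and 279 CPM, and Satb1 was 423 and 354 against 271 and 349 CPM. In these sums the groups did not overlap for the 3 genes, though placebo 2 and tamoxifen 2 were close for Satb1. By share of thinned cells Bach2 overlapped, at 15.6% and 6.45% in the placebo and 10.0% and 10.9% in the tamoxifen libraries. Foxp1 did not, at 35.9% and 39.8% against 21.2% and 21.7%. Satb1 was at 34.9% and 28.0% against 21.9% and 27.9%. For it placebo 2 (26 of 93 cells) and tamoxifen 2 (36 of 129 cells) were almost equal. Their log2 fold changes were -0.43 ± 0.21 for Bach2, -0.34 ± 0.17 for Foxp1 and -0.35 ± 0.19 for Satb1, and each interval included 0. Satb1 was at -0.17 without tamoxifen 1 and at -0.52 without tamoxifen 2. The edgeR adjusted p was 1.00 for all of them. In the large cluster alone, without the Ccl5 and Nkg7 cells, the log2 fold changes were -0.40 for Bach2, -0.20 for Foxp1 and -0.28 for Satb1.

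S1pr1 was 280 and 253 TMM-scaled CPM in the placebo and 307 and 319 in the tamoxifen libraries of CD8 T cells, above in both, with a log2 fold change of 0.22 ± 0.17. In the large cluster alone it was 0.41, with an edgeR adjusted p of 1.00. The counts of non-overlapping genes, 1 upward and 3 downward of 9, stand beside 16.0% and 16.2% of all genes tested in CD8 T cells. Il7r was 744 and 1128 CPM against 827 and 738 CPM, so that placebo 2 stood alone at the top, as it did in CD4 T cells. Ccr7 (log2 fold change 0.08 ± 0.19), Dapl1 (0.09 ± 0.20), Lef1 (-0.04 ± 0.18) and Tcf7 (-0.06 ± 0.17) overlapped, with tamoxifen 1 the lowest library for Ccr7 and Tcf7. The median over the 9 genes was -0.06 against 0.00 over all genes tested.

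RNA of other cells differed between the CD8 T cell libraries. The 2 genes called in CD8 T cells were S100a8 (log2 fold change -3.26, edgeR adjusted p 0.00504) and S100a9 (-2.71, adjusted p 0.00977), both abundant in neutrophils. All 8 neutrophil markers were found in these cells, and their summed level was 675 and 2328 plain CPM in the placebo and 220 and 215 CPM in the tamoxifen libraries. Erythroid markers, 7 of 7 found, summed to 3260 and 358 against 261 and 254 CPM. Of the 8 B cell markers 5 were found, summing to 104 and 88.9 CPM against 91.6 and 112 CPM, and Ms4a1 and Pax5 were among those at 0. With DESeq2, with doublets kept and with left-out clusters put back, no gene was called in CD8 T cells. The part of these transcripts in the values of Bach2, Foxp1 and Satb1 was not tested.

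In B cells, 6 of the 9 genes had enough counts to be tested with edgeR, and none passed. None of 8658 genes did (0.0%), while 281 (3.25%), S1pr1 among them, had an unadjusted p under 0.05 and DESeq2 called 4. S1pr1 was 219 and 179 TMM-scaled CPM in the placebo and 131 and 147 CPM in the tamoxifen libraries. On these sums both tamoxifen libraries lay below both placebo libraries. By share of thinned cells with S1pr1 the groups overlapped, at 20.5% and 14.8% in the placebo and 14.3% and 17.6% in the tamoxifen libraries. The log2 fold change was -0.53 ± 0.18 (interval -0.93 to -0.12), and edgeR gave an unadjusted p of 0.0173 and 1.00 after adjustment. On TMM-scaled CPM, S1pr1 was the 1 gene of 6 that did not overlap downward, and 0 of 6 did so upward. Of all genes tested in B cells 16.8% and 16.7% did. S1pr1 was lower with tamoxifen in each B cell cluster when the group means were compared, at 222 and 208 against 125 and 153 plain CPM in the larger and 235 and 139 against 138 and 125 in the smaller, where placebo 2 and tamoxifen 1 were almost equal.

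The other B cell values turned on placebo 1. Ccr7 was 1018 and 727 TMM-scaled CPM in the placebo and 822 and 685 in the tamoxifen libraries. Bach2 was 204 and 108 against 133 and 94.8 CPM, Satb1 was 231 and 134 against 175 and 120 CPM, and Foxp1 was 723 and 563 against 596 and 491 CPM. In all 4 genes placebo 1 was the highest library, tamoxifen 1 the second and tamoxifen 2 the lowest. The log2 fold changes were -0.21 ± 0.20 for Ccr7, -0.47 ± 0.30 for Bach2, -0.32 ± 0.28 for Satb1 and -0.24 ± 0.19 for Foxp1. Without placebo 1 they became 0.06 for Ccr7, 0.10 for Bach2, 0.16 for Satb1 and -0.04 for Foxp1, and S1pr1 became -0.37. The excess in placebo 1 was present in both B cell clusters: Bach2 was 253 plain CPM there in the larger cluster against 115 to 149 in the other libraries, and 137 against 66.5 to 95.04 in the smaller.

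Per cell and at equal depth, placebo 1 also stood apart: 23.8% of its thinned B cells held at least 3 of the 9 genes, against 11.7% in placebo 2, 13.9% in tamoxifen 1 and 12.3% in tamoxifen 2. Its B cells had the lowest median depth, 2481 UMIs against 3422 to 4036. Erythroid markers, 7 of 7 found, summed to 1417 plain CPM in its B cells and to 83.0 to 555 CPM in the others, and neutrophil markers, 8 of 8 found, to 67.2 CPM against 582 to 2153 CPM. Their part in the result was not tested. The median log2 fold change of the 6 genes was -0.28, and that of all genes tested in B cells was 0.00 to 2 decimals.

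Il7r, Lef1, Tcf7 and Dapl1 were at most at trace level in B cells. Lef1 gave 17, 1, 18 and 3 UMIs, Tcf7 5, 1, 6 and 6, and Dapl1 4, 0, 4 and 0 in placebo 1, placebo 2, tamoxifen 1 and tamoxifen 2. The thinned share of cells with Dapl1 was 0 in placebo 2, which by 3 counts allows up to 2.34%, and 0 of 804 cells in tamoxifen 1, which allows up to 0.373%. Il7r had a log2 fold change of 0.55 ± 0.54 on those 53 UMIs, and its interval spans folds from 0.611 to 3.52.

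**Figure D4:**
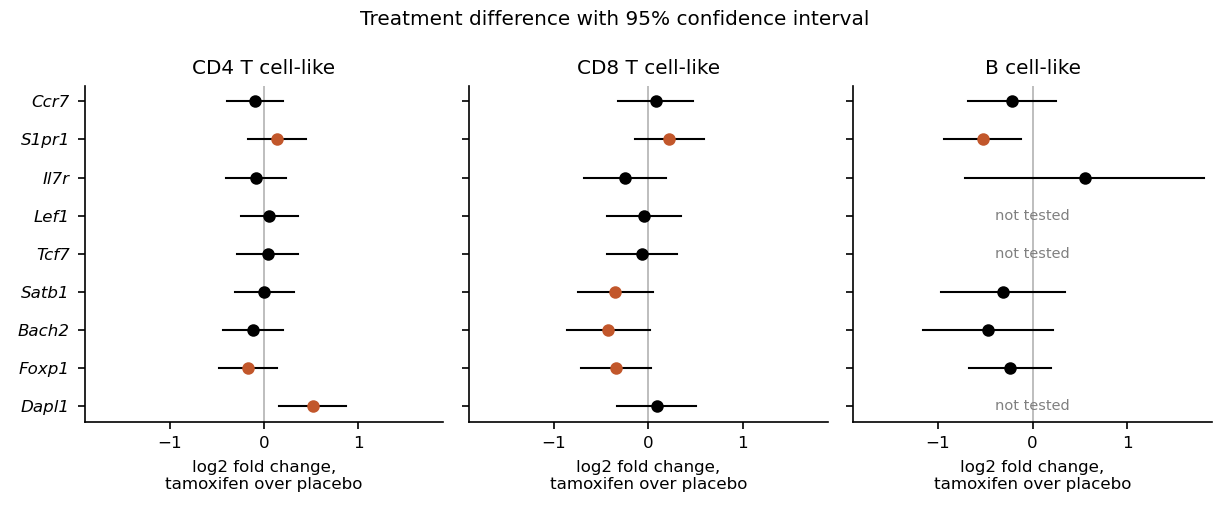
Points are log2 fold changes of tamoxifen over placebo for each gene in each class, from edgeR, and bars are 95% confidence intervals; orange points mark genes whose 2 placebo and 2 tamoxifen libraries do not overlap on TMM-scaled CPM. Of 24 intervals, those of Dapl1 in CD4 T cells (0.16 to 0.87) and S1pr1 in B cells (-0.93 to -0.12) leave out 0.

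By summed level, S1pr1 in both tamoxifen libraries thus lay above placebo in the T cell classes and below it in B cells. The difference between classes was tested in 1 fit with the mouse as a block. The log2 fold change of S1pr1 was lower in B cells than in CD4 T cells by a difference of -0.69 ± 0.18 (interval -1.07 to -0.31; unadjusted p 0.00116, edgeR adjusted p 0.293). Between B and CD8 T cells the difference was -0.77 ± 0.20 (interval -1.19 to -0.35; unadjusted p 0.000947, adjusted p 0.429 by edgeR). With all 4 libraries in the fit, neither passed the threshold, nor did any of the 9 genes in the 3 class pairs. Of 8861 genes tested, 0.0339%, 0.135% and 0.0339% were called for CD8 T against CD4 T, B against CD4 T and B against CD8 T. With placebo 2 left out, the S1pr1 difference between B and CD4 T cells was -0.91, and with placebo 1 left out it was -0.40. Between CD8 T and CD4 T cells the S1pr1 difference was 0.08 ± 0.19.

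The genes around these 9 in their pathways gave few calls. Of 20 genes of naive and quiescent cells, such as Klf2 and Btg1, 20, 19 and 14 were tested in CD4 T, CD8 T and B cells; none was called by edgeR, and the median log2 fold changes were 0.00, 0.01 and -0.14. In B cells Klf2, the factor that drives S1pr1 transcription in T cells, was 1323 TMM-scaled CPM on average with placebo and 922 with tamoxifen (log2 fold change -0.52), with an edgeR adjusted p of 1.00. In CD4 T and CD8 T cells Klf2 had log2 fold changes of -0.09 and -0.002, where S1pr1 was at 0.14 and 0.22. The part of Klf2 in the S1pr1 values was not tested. Homing and egress genes, 15, 16 and 17 of 20 tested, had medians of -0.01, 0.06 and -0.04, and IL-7 receptor signalling genes, 11, 10 and 10 of 12 tested, -0.12, 0.02 and -0.01; neither list held a call. Of 15 naive B cell genes such as Fcmr and Ebf1, all 15 were tested in B cells with 0 edgeR calls and a median of -0.08. Partners of TCF1 and LEF1 such as Ctnnb1 and Bcl11b had none either, with medians of -0.02, 0.09 and 0.06 over 12, 11 and 8 tested of 14.

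Of 15 activation and immediate early genes tested in CD4 T cells, 15 had a log2 fold change below 0, with a median of -0.40, and 10 were below in both tamoxifen libraries, where 50.9% of all genes tested had a value below 0 and 15.5% lay below in both. The 1 called was Dusp1, a phosphatase gene that dampens MAP kinase signals, at 313 and 375 TMM-scaled CPM with placebo and 188 and 150 with tamoxifen (edgeR adjusted p 0.0454); no gene was called in CD4 T cells with doublets kept, with cells assigned singly, with equal cells per library, with regulatory T cells added or without tamoxifen 1. In CD8 T cells 13 of 16 were below 0, with a median of -0.26 and 0 calls, and in B cells 9 of 19, with a median of 0.04 and 0 calls. Effector and memory genes in CD8 T cells had a log2 fold change above 0 in 17 of 19 tested, with a median of 0.46 and 0 calls, where 49.5% of all genes tested had a value below 0. Of these 19, 3 lay above placebo in both tamoxifen libraries and 2 below, against 16.0% and 16.2% of all genes tested. In CD4 T cells the same list had 5 of 12 above 0, with a median of -0.10, and in B cells 6 of 11, with a median of 0.16, both with 0 calls. Ccl5, a chemokine of effector and memory T cells, had a log2 fold change of 1.24 in CD8 T cells, beside the 62 of 96 Ccl5 and Nkg7 cells that came from tamoxifen 1. Its groups overlapped there, at 1876 and 737 TMM-scaled CPM in the placebo and 5144 and 1052 in the tamoxifen libraries.

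Transcripts for the ligands of these receptors were found outside the lymphocytes. Ccl21a gave 1082 UMIs in 104 lymphatic endothelial cells (1447 plain CPM), and Ccl19 gave 383 UMIs in 374 pericytes or smooth muscle cells (141 CPM). Il7 was sparse, at 29 UMIs in lymphatic endothelial cells (38.8 CPM). Spns2, an exporter of sphingosine 1-phosphate, gave 525 UMIs in general capillary endothelial cells (148 CPM), the class with the highest S1pr1 level. Mfsd2b, from the same list of ligands and their handling, gave 143 UMIs in platelets or megakaryocytes (335 CPM).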

How the data were processed

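The authors deposited raw UMI counts per gene and cell barcode for 4 libraries; Cell Ranger 5.0.0 stands in the file headers, whereas 8.0.1 and the build mm10 stand in the submitters' processing notes. Which version made the counts was not settled. A cell was kept if it had 250 genes or more and no more than 15% of its UMIs from mitochondrial genes. Scrublet (scanpy 1.11.5) scored doublets, and its automatic threshold marked 160, 0, 151 and 3 cells, so cells scoring above 0.25 were removed in every library. Clustering used 2000 variable genes without the 9 genes, 40 principal components and leidenalg 0.10.2 at resolution 4, which gave 96 clusters. Resolution and naming thresholds (at least 3 markers, a marker score of 0.8, the top 10 genes, the coreceptors) were set after the clusters had been seen. Counts were summed per class and library and tested with edgeR 4.0.16 (filterByExpr, TMM, quasi-likelihood), with Benjamini-Hochberg adjustment over all genes tested in a class. DESeq2 1.42.0 was an alternative. The code was tested on simulated data. No source states that the mice differ in litter or day, and p-values measure the spread between these mice.

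The 9 genes and the gene lists were chosen with earlier results of these data known. The named genes are the 9 genes in every class, of each list the genes called and the 3 most abundant in a class, and of the 3 genes most correlated with each the first. The windows shown were chosen after values were seen. Some results are not reported here. TMM factors were 0.945 to 1.05. Columns of per-sample values without a sample numbered 0.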

Additional observations from a re-analysis of the deposited data

How the results depend on the processing

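Of 366 alternative values of the 24 log2 fold changes tested, 339 kept their direction and 1 passed the threshold. No gene of the 9 was called under any setting that kept all 4 libraries. With a library left out, Dapl1 in CD4 T cells (without placebo 1) and the S1pr1 difference between classes (without placebo 2) crossed the threshold. None of the 9 genes did in CD8 T or B cells. Such fits assume that the lone sample of a group varies like the other group. The calls over all genes in the fit of class differences without placebo 2 are not given here. With the replicate block the count of called genes of the 9 was 0 in each class, though calls over all genes went from 2 to 5 in CD4 T, 2 to 31 in CD8 T and 0 to 33 in B cells; crossed blocks, added after seeing the data, gave 5, 4 and 0. Deviations of same-numbered libraries correlated at -0.03, 0.14 and 0.29 in the 3 classes, and the samples share only a number. Without a count filter the calls over all genes were 54, 51 and 94; without placebo 1 they were 95, 61 and 35. The calls over all genes fell to 0 in CD4 T cells with doublets kept, cells assigned singly, equal cells per library, regulatory T cells added and without tamoxifen 1, and in CD8 T cells with DESeq2, doublets kept and left-out clusters put back.

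Direction turned for 12 of the 24 values when 1 library was left out. The ranges were: in CD4 T cells Il7r -0.25 to 0.11, Lef1 -0.041 to 0.16, Tcf7 -0.14 to 0.21 and Satb1 -0.098 to 0.12; in CD8 T cells Ccr7 -0.093 to 0.24, Il7r -0.52 to 0.085, Lef1 -0.22 to 0.15, Tcf7 -0.17 to 0.043 and Dapl1 -0.17 to 0.36; in B cells Ccr7 -0.43 to 0.055, Satb1 -0.63 to 0.16 and Bach2 -0.82 to 0.10. The other 12 kept their direction, in CD4 T cells with Ccr7 -0.15 to -0.012, S1pr1 0.045 to 0.25, Bach2 -0.17 to -0.029, Foxp1 -0.25 to -0.047 and Dapl1 0.36 to 0.76; in CD8 T cells S1pr1 0.17 to 0.30, Satb1 -0.52 to -0.17, Bach2 -0.60 to -0.30 and Foxp1 -0.47 to -0.21; in B cells S1pr1 -0.66 to -0.37, Il7r 0.17 to 1.496 and Foxp1 -0.40 to -0.045. Values under other settings also turned where the main value was near 0. Tcf7 in CD4 T cells was -0.0045 in the largest cluster and -0.018 with regulatory T cells added. Satb1 in CD4 T cells was -0.0043 with doublets kept, -0.0058 with left-out clusters put back and -0.0026 with regulatory T cells added. In CD8 T cells, Lef1 was 0.0082 and Tcf7 0.073 with doublets kept, 0.060 and 0.034 with the 9 genes allowed in the clustering, and 0.11 and 0.094 in the largest cluster. Putting clusters back and adding regulatory T cells were chosen after seeing the data. The cause was not tested. Depth limits the B cell results of Il7r, Lef1, Tcf7 and Dapl1, and 2 mice a group limit all of them.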
